A study of Mus musculus with 12 samples.

Results

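Neutrophils can be followed in bulk tissue RNA through a small set of transcripts that they hold at high levels. Here 10 such genes were read across the pylorus, the outlet of the stomach, of mice with and without a tumour-inducing transgene: S100a8, S100a9, Csf3r, Cxcr2, Retnlg, Fpr1, Fpr2, Il1r2, Clec4d and Trem1. They were chosen by symbol and were all found among the 23420 genes of the deposited count table. The libraries form 4 groups of 3. The tumour model is the CEA424-SV40 T Ag mouse, in which a fragment of the promoter of the human gene for carcinoembryonic antigen, an epithelial surface protein, drives the large T antigen of SV40, and it was sampled at 80 days (D80) and at 60 days (D60) of age. Its counterparts are C57BL/6 wild-type mice of 80 and 60 days. The labels do not say that each library came from a separate animal, so p-values measure the spread between libraries, which may be technical.

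Neutrophils are short-lived granulocytes that leave the bone marrow under the control of granulocyte colony-stimulating factor, enter tissue along gradients of chemokines and bacterial formyl peptides, and there release alarmins, proteases and cytokines. In the stomach they are sparse in healthy mucosa and are found in inflamed and ulcerated tissue. The 10 genes cover these steps. S100a8 and S100a9 encode the subunits of calprotectin, a calcium- and metal-binding alarmin of the neutrophil cytosol, and Retnlg encodes a secreted protein of the resistin family. Csf3r is the receptor of granulocyte colony-stimulating factor, Cxcr2 that of chemokines such as Cxcl1, Cxcl2 and Cxcl5, and Fpr1 and Fpr2 are formyl peptide receptors. Il1r2 is a decoy receptor that binds interleukin-1 without signalling, while Clec4d, a C-type lectin, and Trem1, an immunoglobulin-type receptor, are activating receptors of myeloid cells.

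S100a8 and S100a9 lie as neighbours on chromosome 3 of GRCm38 (the build also called mm10), at chr3:90668978-90670035 on the plus strand and chr3:90692632-90695721 on the minus strand, 22596 bases apart. Fpr1 and Fpr2 lie 3883 bases apart on chromosome 17. The promoters of the calprotectin pair are shown because these transcripts were the most abundant of the set per length with Retnlg and varied most between libraries, and that of Clec4d because its genotype effect differed between the ages. Each covers 250 bases before and 50 bases after the start that RefSeq gives on GRCm38.p6, read on the gene's own strand from chr3:90668821-90669120 (plus), chr3:90695672-90695971 (minus) and chr6:123261857-123262156 (plus). Capitals mark matches on either strand. The letters searched were GAGGAA, the core of the site bound by the myeloid factor PU.1. Also searched were TTGCNNAA, a C/EBP-type site, and TATAAA, the letters of a TATA box.
S100a8: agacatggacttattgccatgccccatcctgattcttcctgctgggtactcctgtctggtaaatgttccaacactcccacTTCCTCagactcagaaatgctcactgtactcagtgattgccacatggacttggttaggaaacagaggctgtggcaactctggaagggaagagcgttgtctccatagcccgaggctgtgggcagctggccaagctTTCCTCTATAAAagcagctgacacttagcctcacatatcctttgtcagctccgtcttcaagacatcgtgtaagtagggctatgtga
S100a9: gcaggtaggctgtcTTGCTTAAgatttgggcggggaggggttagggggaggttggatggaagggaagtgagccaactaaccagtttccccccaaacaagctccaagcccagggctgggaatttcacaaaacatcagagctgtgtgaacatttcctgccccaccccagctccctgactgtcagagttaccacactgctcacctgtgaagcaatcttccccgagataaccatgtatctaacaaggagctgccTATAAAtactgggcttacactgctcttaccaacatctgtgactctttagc
Clec4d: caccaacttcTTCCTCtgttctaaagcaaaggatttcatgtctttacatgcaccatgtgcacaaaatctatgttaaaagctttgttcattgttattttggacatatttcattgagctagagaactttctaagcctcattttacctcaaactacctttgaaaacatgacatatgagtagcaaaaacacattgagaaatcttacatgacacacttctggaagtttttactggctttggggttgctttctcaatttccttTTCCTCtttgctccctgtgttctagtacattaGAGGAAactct
In S100a8 a GAGGAA match on the opposite strand directly adjoins the TATAAA match, so that the capitals run on. S100a9 holds a TTGCNNAA and a TATAAA match, and Clec4d holds 3 GAGGAA matches. Searched on both strands, GAGGAA occurred in the promoters of 6 of the 10 genes (S100a8, Csf3r, Cxcr2, Fpr2, Clec4d and Trem1) and in 28.3% of all 32851 promoters of this length. TTGCNNAA occurred in 2 of the 10 (S100a9 and Retnlg) and in 10.8% of all, and TATAAA in 4 of the 10 (S100a8, S100a9, Fpr1 and Fpr2) and in 13.6% of all. The Il1r2 promoter held no match to any of these letters. The motifs were picked with the sequences in view, and a match is a description of letters only.

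Library totals were between 20121600 and 27633715 counts, and 15369 genes had enough counts to be tested. Levels are given as CPM, counts scaled to the library's total after TMM scaling, a correction for differing RNA composition, with factors of 0.805 to 1.30. A count of 0 allows a level of up to 0.0901 to 0.185 CPM, depending on the library, at 3 counts. Stomach transcripts were abundant everywhere, with the 9 genes of the stomach list (such as Gast, Muc5ac and Tff1) summing to 37289 to 52799 CPM in D80 transgenic libraries and to 117307 to 155977 CPM in D80 wild-type libraries. Transcripts of neighbouring tissues differed between libraries of a group. The 7 duodenal enterocyte genes summed to 2463, 2797 and 1100 CPM in D80 transgenic and to 189, 1894 and 9474 CPM in D80 wild-type libraries. The 8 pancreatic acinar genes summed to 4007, 953 and 820 CPM in D80 transgenic and to 613, 283 and 571 CPM in D80 wild-type libraries. The part of such tissue content in the neutrophil results was not tested. Transcripts of the Y chromosome and Xist set 4 libraries apart from the rest. All 3 D60 wild-type libraries and replicate 1 of the D80 transgenic group had 1666 to 2401 counts of Y-linked genes and at most 1 count of Xist, whereas the other 8 libraries had 2218 to 11633 counts of Xist. At D60, sex and genotype therefore cannot be told apart, and in wild-type mice neither can sex and age. Of the 10 genes, 9 passed the filter on low counts, which can be met through the D80 transgenic group alone, and Fpr2 did not.

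At D80 the neutrophil genes were higher in the transgenic pylorus, with ratios of summed counts between 2.95 for Il1r2 and 217.5 for S100a9. All 9 tested genes passed the test in that direction (edgeR quasi-likelihood test, Benjamini-Hochberg adjusted p under 0.05), where 41.3% of all tested genes were called in either direction and 19.4% as higher. Their median log2 fold change was 5.00, against -0.074 over all tested genes. Genes with few counts in all other groups passed the filter only through the D80 transgenic group. These were S100a8, S100a9, Cxcr2, Fpr1, Clec4d and Trem1. A lower call was not open to them, so for these genes the count and the median do not test the direction. It was open only to Csf3r, Retnlg and Il1r2. The lowest transgenic library exceeded the highest wild-type library for 9 of the 10 genes, Il1r2 being the exception, and for 24.4% of all tested genes. Without replicate 1 of the D80 transgenic group, which differs from the other D80 libraries in sex-linked transcripts, Fpr2 also passed the filter and all 10 genes were called. In bulk RNA, more cells of a type and more RNA per cell cannot be told apart.

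**Figure D1:**
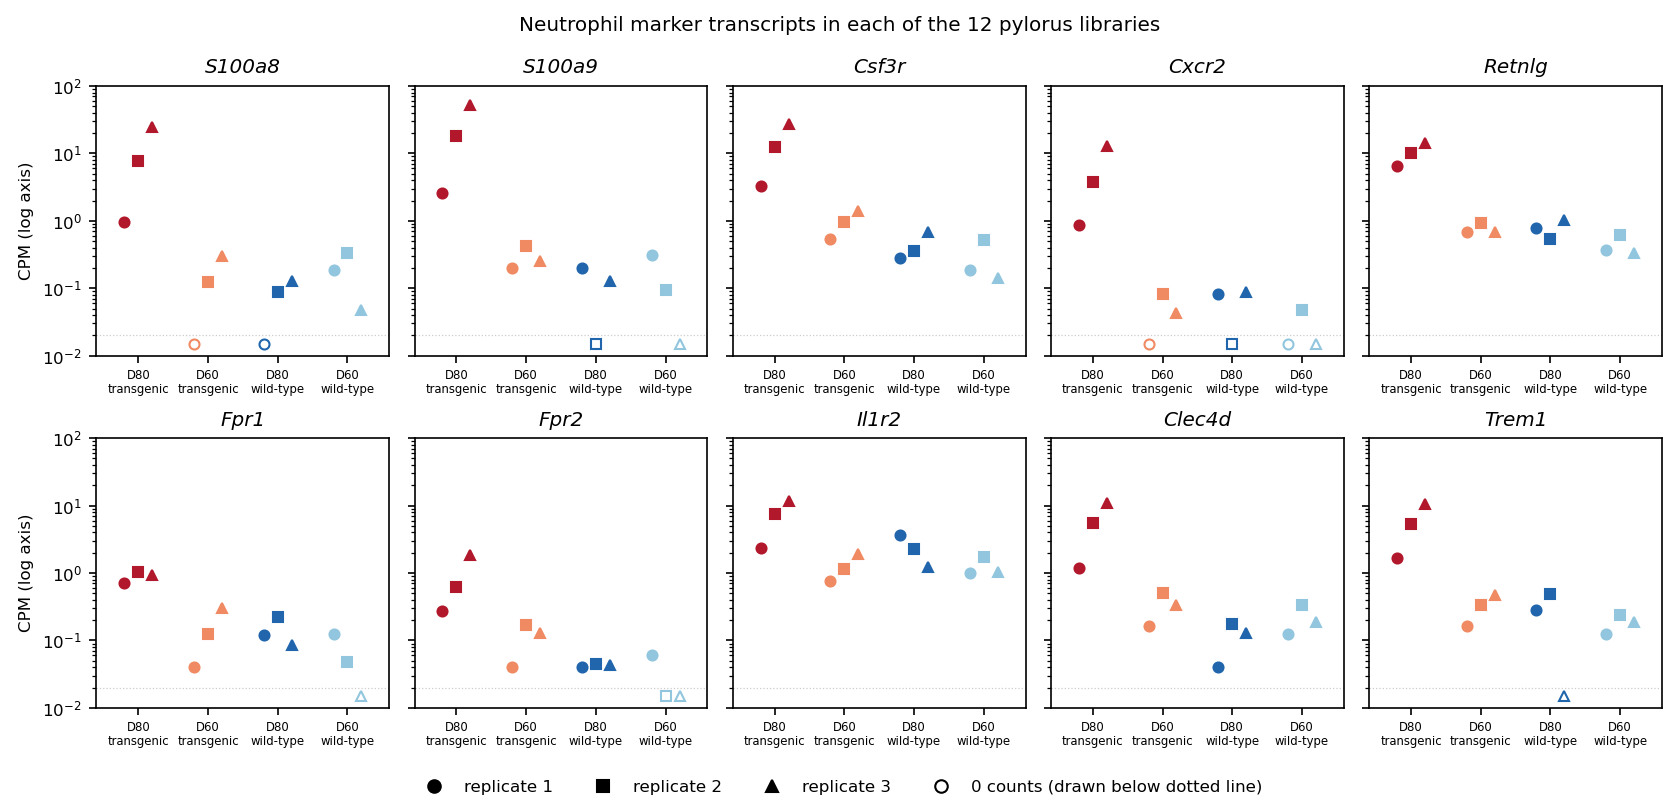
Level of each of the 10 genes in each of the 12 libraries, in CPM on a log axis, with groups ordered D80 transgenic, D60 transgenic, D80 wild-type and D60 wild-type; open symbols mark libraries with 0 counts, drawn below the dotted line. The 3 D80 transgenic libraries lie above all others for every gene but Il1r2, and replicate 3 is the highest of them for every gene but Fpr1.

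Of the calprotectin subunits, S100a8 stood at 0.961, 7.60 and 24.9 CPM in the D80 transgenic libraries and at 0, 0.125 and 0.298 CPM in the D60 transgenic libraries. In wild-type libraries it stood at 0, 0.0882 and 0.130 CPM at D80 and at 0.185, 0.330 and 0.0476 CPM at D60. The transcript was thus near the limit of detection in all groups but 1, in which it spanned a 26.0-fold range. Its log2 fold change at D80, transgenic over wild-type, was 7.19 ± 1.30 (SE; edgeR adjusted p = 0.00134). S100a9 stood at 2.58, 18.3 and 53.0 CPM in the D80 transgenic libraries and at 0.203, 0.417 and 0.255 CPM in the D60 transgenic ones, against 0.203, 0 and 0.130 CPM in the D80 wild-type and 0.309, 0.0942 and 0 CPM in the D60 wild-type libraries. It followed the same order among the D80 transgenic libraries as its partner, and its log2 fold change at D80 was 7.70 ± 1.17 (SE; edgeR adjusted p = 0.000452). Both values rest on few counts on the wild-type side, 5 for S100a8 and 8 for S100a9 over 3 libraries, and they move with single libraries. Without replicate 3 of the D80 transgenic group they were 5.84 and 6.51, without replicate 3 of the D80 wild-type group S100a8 gave 7.87, and without replicate 1 of that group S100a9 gave 8.44. limma-voom ended both calls (adjusted p = 0.0698 and 0.0683).

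Retnlg varied less between the D80 transgenic libraries than any other gene of the set but Fpr1. It measured 6.40, 10.2 and 14.1 CPM in the D80 transgenic libraries and 0.691, 0.917 and 0.681 CPM in the D60 transgenic libraries, against 0.772, 0.529 and 1.04 CPM in D80 wild-type and 0.370, 0.612 and 0.333 CPM in D60 wild-type libraries. The D80 transgenic libraries stood well apart from all others and within 2.20-fold of each other. Its log2 fold change at D80 was 3.70 ± 0.37 (SE; edgeR adjusted p = 1.9e-05), the smallest p among the 10 genes.

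Among the receptors that guide neutrophils, Csf3r measured 3.30, 12.4 and 27.4 CPM in D80 transgenic and 0.529, 0.958 and 1.40 CPM in D60 transgenic libraries, against 0.284, 0.353 and 0.693 CPM in D80 wild-type and 0.185, 0.518 and 0.143 CPM in D60 wild-type libraries. The D80 transgenic libraries lay above all others and spanned an 8.29-fold range among themselves. Its log2 fold change at D80 was 5.00 ± 0.76 (SE; edgeR adjusted p = 0.000457). Cxcr2 measured 0.871, 3.83 and 13 CPM in D80 transgenic libraries. Elsewhere it was at 0 to 2 counts per library, with 3 counts over the D60 transgenic, 4 over the D80 wild-type and 1 over the D60 wild-type group. Its log2 fold change at D80 was 6.58 ± 1.11 (SE; edgeR adjusted p = 0.00085), and the ratio of summed counts was 105 (95% exact interval 40.8 to 387, covering counting error only). Without replicate 3 of the D80 transgenic group, Csf3r gave 4.17 and Cxcr2 gave 5.29, both still called.

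The formyl peptide receptors were the scarcest of the set and differed in how they varied. Fpr1 measured 0.721, 1.03 and 0.930 CPM in D80 transgenic libraries and 0.0407, 0.125 and 0.298 CPM in D60 transgenic libraries, against 0.122, 0.221 and 0.0867 CPM in D80 wild-type and 0.123, 0.0471 and 0 CPM in D60 wild-type libraries. The D80 transgenic libraries stood close together and apart from the rest, with a log2 fold change of 2.60 ± 0.62 (SE; edgeR adjusted p = 0.00633). Fpr2 had 9, 17 and 59 counts in the D80 transgenic libraries and 1, 4 and 3 counts in the D60 transgenic libraries, against 1 count in each D80 wild-type library and 1 count over the D60 wild-type group. Its ratio of summed counts at D80 was 21.5 (95% exact interval 7.11 to 106), and in a fit with no filter on low counts it passed the test (edgeR adjusted p = 0.00357). Its annotated exons share 48 bases with those of Fpr3, a gene listed at 0 in all libraries, so reads from the shared stretch may be missing from the Fpr2 count.

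The remaining receptors act on inflammatory signalling. Clec4d measured 1.20, 5.49 and 10.8 CPM in D80 transgenic and 0.163, 0.500 and 0.341 CPM in D60 transgenic libraries, against 0.0406, 0.176 and 0.130 CPM in D80 wild-type and 0.123, 0.330 and 0.190 CPM in D60 wild-type libraries. Trem1 measured 1.68, 5.35 and 10.6 CPM in D80 transgenic and 0.163, 0.333 and 0.468 CPM in D60 transgenic libraries, against 0.284, 0.485 and 0 CPM in D80 wild-type and 0.123, 0.236 and 0.190 CPM in D60 wild-type libraries. Both were clear of every other library in all 3 D80 transgenic libraries. At D80 the log2 fold change was 5.61 ± 0.84 for Clec4d (SE; edgeR adjusted p = 0.000415) and 4.49 ± 0.83 for Trem1 (SE; edgeR adjusted p = 0.00149). Without replicate 3 of the D80 transgenic group they were 4.85 and 3.80, and without replicate 2 of the D80 wild-type group Trem1 gave 5.29.

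Il1r2, the decoy receptor, changed least. It measured 2.37, 7.49 and 11.7 CPM in D80 transgenic and 0.773, 1.13 and 1.92 CPM in D60 transgenic libraries, against 3.66, 2.29 and 1.21 CPM in D80 wild-type and 0.988, 1.70 and 1.05 CPM in D60 wild-type libraries. It was the gene of the set with over 1 CPM on average in every group, and the lowest D80 transgenic library lay below the highest D80 wild-type library. Its log2 fold change at D80 was 1.59 ± 0.56 (SE; edgeR adjusted p = 0.0387). The call ended in limma-voom (adjusted p = 0.0914), in an edgeR fit of only the 2 groups compared (adjusted p = 0.0854) and without any of 5 single libraries: replicate 2 or 3 of the D80 transgenic group (0.0861 and 0.17, the last with a log2 fold change of 1.09), replicate 2 or 3 of the D80 wild-type group (0.0966 and 0.114) or replicate 3 of the D60 wild-type group (0.0518).

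At D60 no gene of the set was called, where 3.90% of all tested genes were called and 3.66% as higher (edgeR quasi-likelihood test). None had an unadjusted p under 0.05 either, and DESeq2 and limma-voom called none of them. The 10 genes summed to 2.60, 4.75 and 5.83 CPM in D60 transgenic libraries and to 2.47, 3.91 and 1.95 CPM in D60 wild-type libraries, and these ranges overlapped. The lowest transgenic library exceeded the highest wild-type library for Csf3r and Retnlg, 2 of the 10 genes, as it did for 12.2% of all tested genes. Of the 9 tested genes Csf3r had the largest fitted difference, with a log2 fold change of 1.72 ± 0.85 (SE; edgeR adjusted p = 0.388), and Retnlg had 0.78 ± 0.41 (SE; edgeR adjusted p = 0.435). S100a8 had 10 counts over the 3 transgenic libraries and 11 over the 3 wild-type libraries.

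Between the ages, the transgenic group was higher at D80 and the wild-type group gave no call. In transgenic mice all 9 tested genes were higher at D80 than at D60, where 35.7% of all tested genes were called and 17.7% as higher (edgeR quasi-likelihood test). All 10 genes were higher in every D80 than in every D60 transgenic library, as were 30.6% of all tested genes. As between the genotypes at D80, a lower call was not open to S100a8, S100a9, Cxcr2, Fpr1, Clec4d and Trem1. The log2 fold changes were 6.27 ± 1.19 for S100a8, 6.38 ± 1.05 for S100a9, 3.89 ± 0.70 for Csf3r, 3.74 ± 0.37 for Retnlg and 2.50 ± 0.61 for Fpr1 (SE). They were 4.10 ± 0.74 for Clec4d, 4.18 ± 0.80 for Trem1 and 2.50 ± 0.58 for Il1r2, the last a clearer difference than that between the genotypes at D80, although the difference between these contrasts was not tested. With 3 counts at D60, Cxcr2 had a ratio of 144 (95% exact interval 48.9 to 698.5). The edgeR adjusted p-values of these 9 genes ran from 0.000132 for Retnlg to 0.00896 for Fpr1. Without replicate 3 of the D80 transgenic group the values of S100a8, S100a9, Csf3r, Clec4d and Trem1 were 4.91, 5.16, 3.04, 3.33 and 3.46, and without replicate 3 of the D60 transgenic group S100a8 gave 7.38 and Fpr1 gave 3.35. limma-voom ended the calls of S100a8 and S100a9 (adjusted p = 0.0744 and 0.0661). Fpr2, in the fit with no filter on low counts, had a log2 fold change of 2.97 ± 0.79 (SE; edgeR adjusted p = 0.0145), which was no longer called without replicate 1 of the D60 transgenic group (adjusted p = 0.0517).

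In wild-type mice none of the 10 genes was called between D80 and D60, and 0.00% of all tested genes were (edgeR quasi-likelihood test). At an unadjusted p under 0.05 the fit held 1925 genes, none of them in the set, while DESeq2 called 260 genes and limma-voom 0. Without replicate 1 of the D80 wild-type group the edgeR fit called 396 genes, none of them in the set. The 10 genes summed to 5.49, 4.19 and 3.55 CPM in D80 wild-type libraries and to 2.47, 3.91 and 1.95 CPM in D60 wild-type libraries. Il1r2 alone made up a large part of these sums, and no gene of the set had all D80 wild-type libraries above all D60 wild-type libraries, as 7.06% of all tested genes did. The comparisons at D80 and in transgenic mice share the D80 transgenic libraries, so their values are not independent of each other.

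**Figure D2:**
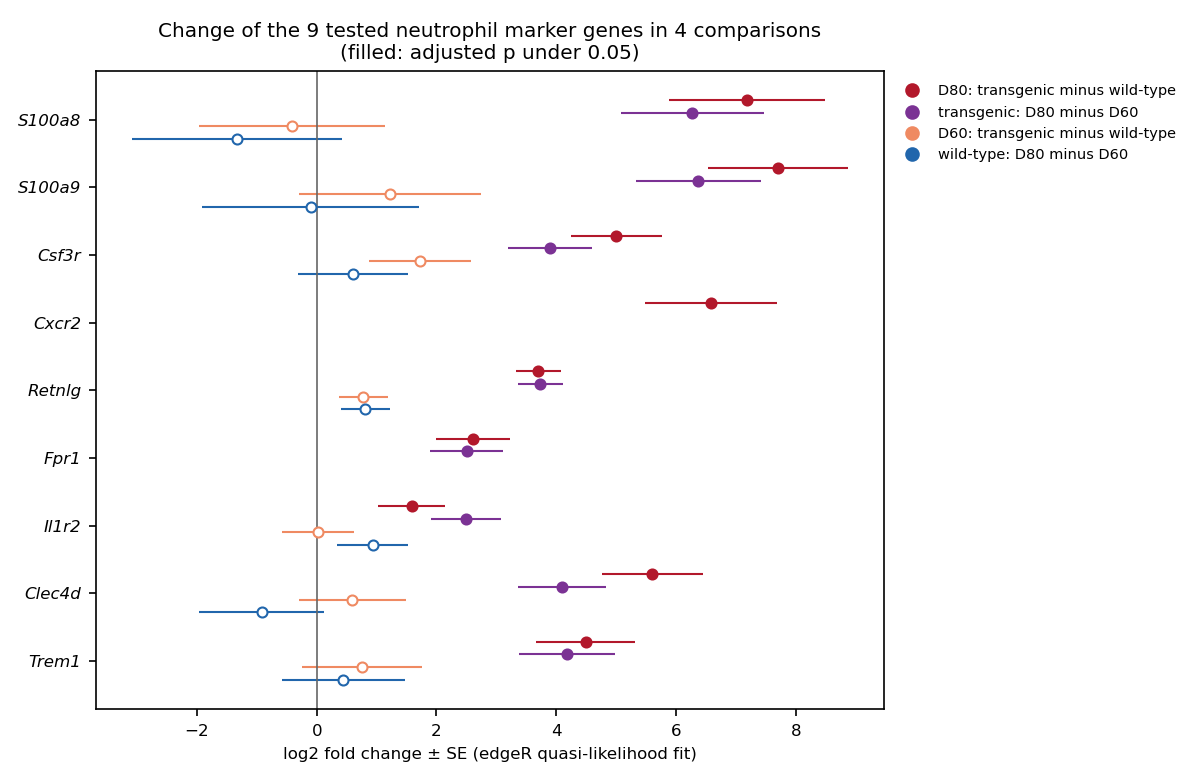
Fitted log2 fold change with its SE for the 9 tested genes in 4 comparisons, with filled points where the adjusted p was under 0.05; a point is left out where a group had at most 3 counts. The comparisons that hold the D80 transgenic group lie between 1.59 and 7.70 with all points filled, and no point of the other comparisons is filled.

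Whether the genotype effect differed between the ages was tested with an interaction term. It was called for Retnlg and Clec4d, 2 of the 9 tested genes, and for 5.00% of all tested genes, 2.77% of all in the positive direction (edgeR quasi-likelihood test). For Retnlg the log2 difference of the effects was 2.92 ± 0.55 (SE; adjusted p = 0.0153) and for Clec4d 5.02 ± 1.29 (SE; adjusted p = 0.0474). The other 7 were not called; the estimate for S100a8 was 7.61 ± 2.20 (SE; edgeR adjusted p = 0.0672), and those of Cxcr2 and Fpr1 rest on at most 3 counts in a group. The Retnlg call ended in limma-voom (adjusted p = 0.0818) and without replicate 2 of the D60 wild-type group (0.0561) or replicate 3 of the D60 transgenic group (0.0516). The Clec4d call held only in the fits that left out replicate 1 of the D80 transgenic group or replicate 1 of the D80 wild-type group among the 12 fits that each left out 1 library, and it ended in limma-voom (adjusted p = 0.238). The number of genes called was 5 without replicate 1 of the D80 transgenic group and 0, 1 or 2 in the other such fits. Since the D60 wild-type libraries are set apart by sex-linked transcripts, sex cannot be told apart from this interaction.

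The 3 D80 transgenic libraries differed from each other as much as many genes differ between genotypes. They held 678, 1960 and 5433 counts of the 10 genes, or 20.4, 72.3 and 168 CPM, where the other 9 libraries held 1.95 to 5.83 CPM. The lowest was replicate 1, the library with Y-linked transcripts, and the highest was replicate 3. The level in replicate 3 over that in replicate 1 was 26.0-fold for S100a8, 20.5-fold for S100a9, 15.0-fold for Cxcr2, 8.95-fold for Clec4d, 8.29-fold for Csf3r, 6.76-fold for Fpr2 and 6.32-fold for Trem1. The corresponding values were 4.95-fold for Il1r2, 2.20-fold for Retnlg and 1.29-fold for Fpr1. The make-up of the set differed with it. Retnlg gave 31.4% of the counts of the 10 genes in replicate 1 (95% exact interval 27.9 to 35.1), 14.1% in replicate 2 (12.6 to 15.8) and 8.37% in replicate 3 (7.65 to 9.14). S100a9 gave 12.7% (10.3 to 15.4), 25.3% (23.4 to 27.3) and 31.5% (30.2 to 32.7), and Csf3r stayed at a like share with 16.2%, 17.1% and 16.3%. Both calprotectin subunits moved nearly together, with 2.69, 2.41 and 2.12 counts of S100a9 for each count of S100a8.

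**Figure D3:**
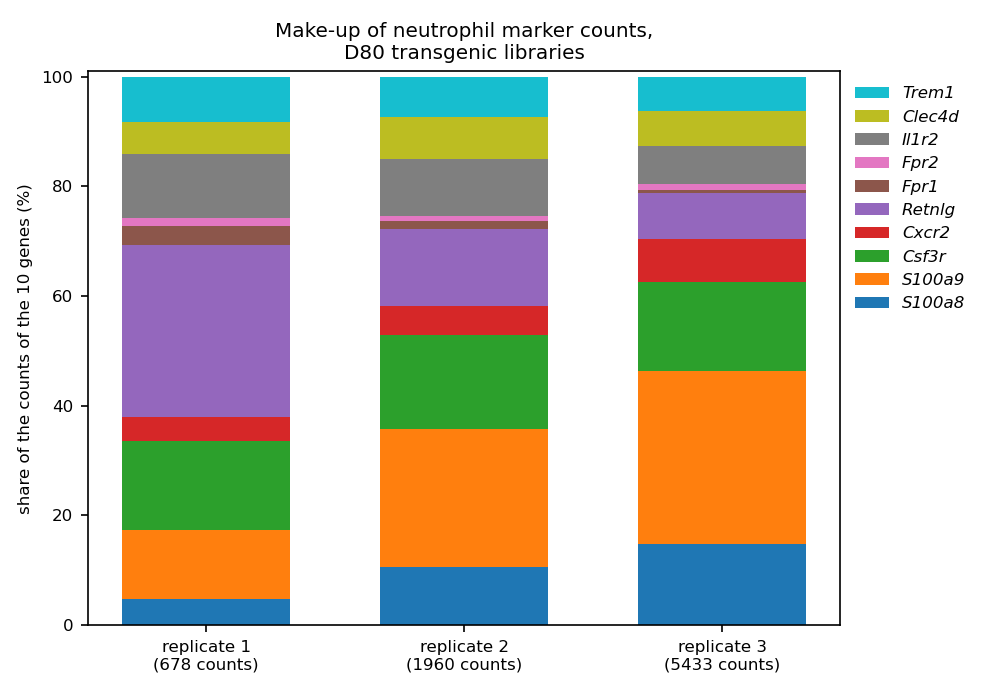
Share of each gene in the summed counts of the 10 genes, for the 3 D80 transgenic libraries. Retnlg takes 31.4% of replicate 1 and 8.37% of replicate 3, and S100a9 takes 12.7% and 31.5%.

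Set on a scale per length of annotated exon, the D80 transgenic group averaged 47.2 ± 49.4 CPM per kb for S100a9, 17.3 ± 6.49 for Retnlg and 16.1 ± 17.8 for S100a8 (SD, n = 3 each). These 3 genes of secreted or cytosolic proteins headed the order. Csf3r had 3.98 ± 3.37, Il1r2 3.77 ± 2.46 and Clec4d 3.64 ± 2.99 CPM per kb, followed by Trem1 with 1.96 ± 1.5 and Cxcr2 with 1.94 ± 2.08. Fpr2 with 0.701 ± 0.63 and Fpr1 with 0.675 ± 0.12 closed it. Between adjacent genes in this order the ranges over the 3 libraries overlapped at every step, so the order of neighbours is not firm. In D80 wild-type libraries the highest levels per length were those of Retnlg, with 1.32 ± 0.431, and Il1r2, with 1.25 ± 0.642 CPM per kb.

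Most tested ligands of these receptors were higher as well. Of 13 ligand genes 10 were tested, and 8 were called higher and 0 lower in D80 transgenic libraries, where 19.4% of all tested genes were called higher; the median log2 fold change was 4.88. Setting genes with at most 3 wild-type counts at that floor left this median and those of the other lists as they are. It applied to 1 ligand gene and to at most 2 genes of any list, so it could hardly move a median and is no check of them. The Cxcr2 ligands Cxcl1, Cxcl2, Cxcl3 and Cxcl5 were all among the 8. Ligands near 0 in all other groups, such as Cxcl1, Cxcl2 and Cxcl3, passed the filter only through the D80 transgenic group, so a lower call was not open to them. Cxcl5 measured 4.24, 11.8 and 22.6 CPM in D80 transgenic libraries, against 0.528, 0.132 and 0.0433 CPM in D80 wild-type libraries, and had a log2 fold change of 5.72 ± 0.95 (SE; edgeR adjusted p = 0.00077). Cxcl2 measured 3.24, 16.8 and 14.2 CPM in D80 transgenic libraries, against 0.122, 0.309 and 0 CPM in D80 wild-type libraries, with a log2 fold change of 6.27 ± 0.90 (SE; edgeR adjusted p = 0.00062). For Cxcl3 the wild-type side held 1 count, so no fold is given for its 2.46, 12.2 and 8.18 CPM. Replicate 1 was again the lowest of the transgenic libraries for each of these. Csf3, the ligand of Csf3r, failed the filter on low counts and stood at 0.150, 1.40 and 3.07 CPM in D80 transgenic libraries, against 0, 0.0441 and 0 CPM in D80 wild-type libraries. Ppbp and Cxcl15 (listed as Il8) failed it as well. Ppbp had 119 counts over the D80 transgenic and 14 over the D80 wild-type group, and Cxcl15 had 10 and 16.

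The interleukin-1 ligands that Il1r2 binds were also higher. Il1b measured 11, 51.5 and 73.6 CPM in D80 transgenic libraries, against 0.975, 1.15 and 1.30 CPM in D80 wild-type libraries (log2 fold change 5.31 ± 0.71, SE; edgeR adjusted p = 0.00019). Il1rn, the antagonist of the signalling receptor, measured 23.5, 30.0 and 39.9 CPM, against 3.25, 6.00 and 6.02 CPM in D80 wild-type libraries. It was the only ligand gene of the 10 tested that was also called at D60, with log2 fold changes of 2.61 ± 0.29 at D80 and 1.96 ± 0.29 at D60 (SE; edgeR adjusted p = 4e-05 and 0.0021). Saa3, a serum amyloid A whose family acts on Fpr2, measured 15.6, 90.4 and 243 CPM in D80 transgenic libraries, against 0.122, 0.265 and 1.78 CPM in D80 wild-type libraries, with a log2 fold change of 7.33 ± 1.07 (SE; edgeR adjusted p = 0.00034) that was 6.24 without replicate 3 of the D80 transgenic group and 9.21 without replicate 3 of the D80 wild-type group. Anxa1, annexin A1, another Fpr2 ligand, was not called, at 108, 98.3 and 114 CPM in D80 transgenic and 140.2, 139 and 97.2 CPM in D80 wild-type libraries. Pglyrp1, also of the ligand list, was not called either. It stood at 308, 266 and 304 CPM in D80 transgenic and 497, 212 and 135 CPM in D80 wild-type libraries.

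Relatives of the 10 genes did not all move with them. Of 19 paralogs 18 were found and 10 tested; 7 were called higher and 1 lower at D80, where 19.4% of all tested genes were called higher, with a median log2 fold change of 2.09, and 5 were called in all without replicate 3 of the D80 transgenic group. Retnla, the resistin-like gene of alternatively activated macrophages, went the other way from Retnlg. It measured 0.391, 0.111 and 0.186 CPM in D80 transgenic and 2.60, 13.3 and 14.3 CPM in D60 transgenic libraries, against 4.14, 4.81 and 9.66 CPM in D80 wild-type libraries. At D80 the transgenic libraries were all below the wild-type ones, with a log2 fold change of -4.70 ± 0.71 (SE; edgeR adjusted p = 0.00042), and -5.32 without replicate 1 of the D80 transgenic group. At D60 the log2 fold change was 2.71 ± 0.61 (SE; edgeR adjusted p = 0.027), a call that ended in limma-voom (adjusted p = 0.205), in limma on the deposited signal (0.052) and without any of the D60 wild-type libraries or replicate 2 or 3 of the D60 transgenic group (0.0573 to 0.136). The interaction of -7.41 ± 0.93 passed the test (SE; edgeR adjusted p = 0.0046). Clec4e, which pairs with Clec4d as a receptor for microbial glycolipids, measured 1.11, 4.09 and 6.20 CPM in D80 transgenic libraries, against 0, 0 and 0.130 CPM in D80 wild-type libraries, and was called higher (edgeR adjusted p = 0.00057). Il1r1, the signalling counterpart of Il1r2, measured 30.4, 36.9 and 54.4 CPM in D80 transgenic libraries, against 17.7, 27.0 and 24.7 CPM in D80 wild-type libraries, with a log2 fold change of 0.81 ± 0.21 (SE; edgeR adjusted p = 0.011). Fpr3, Fpr-rs3, Fpr-rs4 and Fpr-rs6 were listed at 0 in all libraries.

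Among S100 relatives and calprotectin receptors, the abundant S100a6 and S100a11 were lower where S100a8 and S100a9 were higher. S100a6 measured 626, 522 and 489.5 CPM in D80 transgenic libraries, against 1190, 2208 and 2717 CPM in D80 wild-type libraries (log2 fold change -1.90 ± 0.30, SE; edgeR adjusted p = 0.00062). S100a11 had a log2 fold change of -0.77 ± 0.15 (SE; edgeR adjusted p = 0.0018). Tlr4, a calprotectin receptor of innate immune cells, was called lower and S100a4 higher (edgeR adjusted p = 0.03 and 0.043), but both calls ended without replicate 2 of the D80 wild-type group or replicate 2 or 3 of the D80 transgenic group, among other fits, and that of Tlr4 ended with the upper-quartile factors or no composition factor (adjusted p = 0.0599 and 0.18). Of the 5 genes of this list 4 were tested, and Ager was not. Of 11 signalling partners, 4 were called higher at D80 and 1 lower, with a median log2 fold change of 0.56, a share near the 41.3% of all tested genes called in either direction. Tyrobp, the adaptor of Trem1, had a log2 fold change of 1.99 ± 0.49 (SE; edgeR adjusted p = 0.0077), and Card9, downstream of the Clec4d and Clec4e receptors, had 2.69 ± 0.59 (SE; edgeR adjusted p = 0.0042). The call of Fcer1g, 1.78 ± 0.49 (SE; edgeR adjusted p = 0.013), ended without replicate 3 of the D80 transgenic group (adjusted p = 0.0528). So did those of Il1rap (0.12) and of Jak2, the partner called lower (0.163), which left 2 called partners. The Il1rap and Jak2 calls also ended in most other fits that left out 1 library, and that of Jak2 in DESeq2 and limma-voom. Stat3 and Gnai2, which transmit Csf3r and Cxcr2 signals in many cell types, were not called at D80.

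Most genes of a list for mature neutrophils were also higher at D80. The list was written with earlier results of these data known, and it holds genes shared with macrophages. The macrophage and monocyte list was higher in the same comparison (12 of 15 called, median log2 fold change 1.48), and which cells carried the difference was not tested. Of the 35 genes listed for mature neutrophils 34 were found and 29 tested, and 26 were called higher and 0 lower. Of all tested genes 19.4% were called higher. The median log2 fold change of the list was 2.27. At D60, where 3.66% of all tested genes were called higher, 1 was called (Cybb, an oxidase subunit shared with macrophages). That count was 4 with DESeq2 or the replicate block, and 0 with limma-voom or without replicate 1 or 3 of the D60 wild-type group or replicate 2 or 3 of the D60 transgenic group. Hp, haptoglobin, measured 31.3, 115 and 221 CPM in D80 transgenic libraries, against 0.488, 0.353 and 2.25 CPM in D80 wild-type libraries, with a log2 fold change of 6.89 ± 0.97 (SE; edgeR adjusted p = 0.00026) that was 6.19 without replicate 3 of the D80 transgenic group and 8.16 without replicate 3 of the D80 wild-type group. Cd177, a surface protein of mouse neutrophils, measured 10.5, 16.7 and 13.5 CPM in D80 transgenic libraries, against 4.06, 4.01 and 2.69 CPM in D80 wild-type libraries (log2 fold change 1.91 ± 0.25, SE; edgeR adjusted p = 0.00013). In the D80 transgenic group Hp averaged 122.5 CPM and S100a9 24.6 CPM. In the D80 wild-type group Cd177 averaged 3.59 CPM and S100a9 0.111 CPM. Which cells carried Hp and Cd177 was not tested. Genes of neutrophil precursors and their granules are transcribed mainly in the bone marrow. Their list summed to 40.3, 62.3 and 77.3 CPM in D80 transgenic libraries, against 89.0, 35.9 and 13.2 CPM in D80 wild-type libraries. Most of this was Ltf, lactoferrin, which glandular epithelia also make, at 38.5, 58.0 and 67.1 CPM in D80 transgenic libraries, against 88.5, 34.5 and 11.8 CPM in D80 wild-type libraries; it was not called. Of the 10 genes 4 were tested and 2 called higher (Mmp8 and Cebpe), a count that was 0 under the CPM filter, 1 without replicate 2 or 3 of the D80 transgenic group and up to 5 without other libraries. Mmp8, neutrophil collagenase, measured 0.451, 1.29 and 2.17 CPM in D80 transgenic libraries and had 1 count over the D80 wild-type group. The Cebpe call ended in DESeq2 (adjusted p = 0.0575) and without replicate 3 of the D80 transgenic group (0.121), among other fits. Elane, encoding neutrophil elastase, was at 0, 0 and 0.186 CPM and Mpo, myeloperoxidase, at 0, 0.111 and 0.868 CPM in the D80 transgenic libraries, against 0, 0 and 0 CPM for Elane and 0, 0 and 0.0433 CPM for Mpo in the D80 wild-type libraries. The other untested genes of this list also had more counts in the D80 transgenic than in the D80 wild-type group. Summed over each group these were 121 and 0 for Ngp, 48 and 3 for Prtn3, 43 and 3 for Camp, and 9 and 3 for Ctsg.

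Among other blood cells, macrophage markers were called most widely. The 15 macrophage and monocyte genes summed to 550, 597 and 747 CPM in D80 transgenic libraries, against 196, 202 and 346 CPM in D80 wild-type libraries. Of these, 12 were called higher at D80 and 0 lower, where 19.4% of all tested genes were called higher. Their median log2 fold change was 1.48, and 7 were called without replicate 2 of the D80 wild-type group. The 7 pan-leukocyte genes summed to 261 to 429.8 CPM in D80 transgenic and to 193 to 258 CPM in D80 wild-type libraries, with 5 called higher. Other granulocyte lists were also higher in sum, though not in every gene. The 7 eosinophil genes summed to 15.1 to 27.6 CPM in D80 transgenic and to 4.31 to 9.19 CPM in D80 wild-type libraries, with 2 of 4 tested called higher. The 10 mast cell and basophil genes summed to 136 to 153.5 and to 50.7 to 56.0 CPM, with 3 of 6 tested called higher. In the transgenic libraries most of these sums came from Alox15 and Kit, and which cells carried them was not tested. Siglec5 (now Siglecf) averaged 2.78 CPM in D80 transgenic and 3.08 CPM in D80 wild-type libraries. In D80 transgenic libraries Epx had 1 count and Prg3 had 0, while Ccr3, Prg2 and Il5ra had more counts than in D80 wild-type ones. Tpsab1 and Ms4a2 averaged 0.218 and 0.169 CPM, against 0.222 and 0.173 CPM. The other mast cell and basophil genes averaged higher in D80 transgenic libraries. The 6 T cell genes summed to 14.5 to 20.4 CPM in D80 transgenic and to 2.56 to 27.2 CPM in D80 wild-type libraries, and these ranges overlapped. Of them 1 was called higher, a count that was 0 without replicate 1 or 2 of the D80 wild-type group or replicate 2 or 3 of the D80 transgenic group, and 2 without replicate 3 of the D80 wild-type group. Of 4 tested B cell genes 3 were called higher, and 1 without replicate 2 of the D80 wild-type group or replicate 3 of the D80 transgenic group, and 1 with DESeq2 or limma-voom. In replicate 3 of the D80 transgenic group the list summed to 44.6 CPM against 4.03 and 5.49 CPM in the other D80 transgenic libraries. Red cell RNA differed as well: Beta-s, an adult beta-globin, stood at 51.9, 94.0 and 190.5 CPM in D80 transgenic libraries, against 23.3, 17.4 and 34.1 CPM in D80 wild-type libraries (log2 fold change 2.17 ± 0.49, SE; edgeR adjusted p = 0.0048). Replicate 1 was the lowest and replicate 3 the highest of the D80 transgenic libraries, as for every neutrophil gene of the set but Fpr1. The part of blood held in the tissue and of macrophages, which also transcribe Clec4d, Trem1, Fpr1 and Fpr2, in the neutrophil results was not tested. The 4 neuroendocrine genes of the tumour (Chga, Chgb, Syp and Pcsk1) did not share that order, with 24713, 34740 and 23028 CPM in the D80 transgenic libraries.

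**Figure D4:**
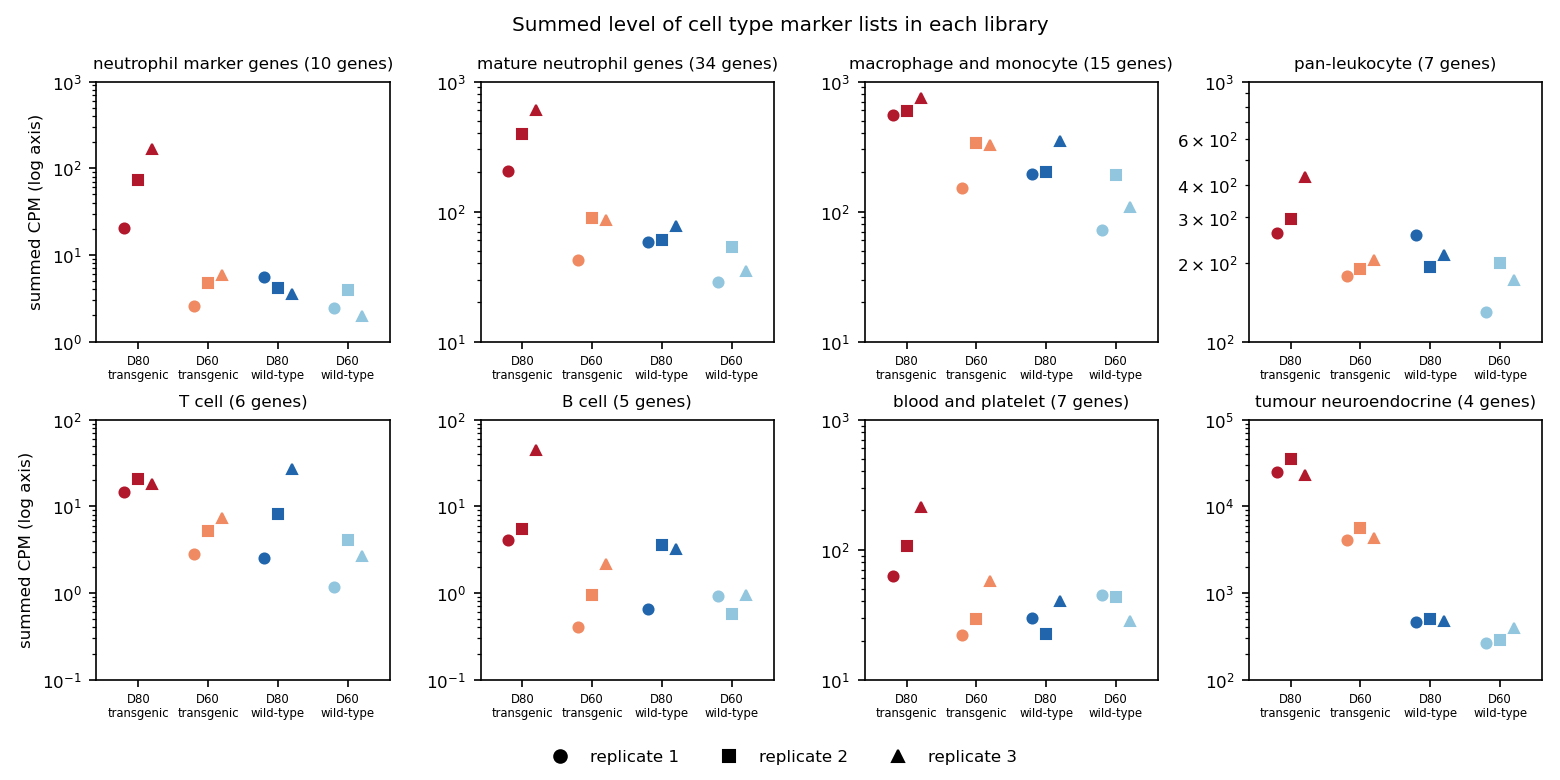
Summed CPM of 8 marker lists in each library on log axes that differ between panels, with groups ordered D80 transgenic, D60 transgenic, D80 wild-type and D60 wild-type. The D80 transgenic libraries spread from 20.4 to 168 CPM for the neutrophil set and from 550 to 747 CPM for the macrophage list.

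Finally, the genes whose levels most resembled the set across the 12 libraries were ranked by Pearson correlation of log2(CPM + 1) with the mean of the 9 tested genes, among 13947 genes, as a description only. Among the highest were Irg1 (0.994), Il11 (0.986), Cxcl5 (0.985), Osm (0.985), Il6 (0.983), Nlrp3 (0.982), Saa3 (0.981), Ccl2 (0.980) and Cpxm1 (0.978). The points share the same libraries and scaling, and the D80 transgenic libraries carry most of the range. Irg1, now named Acod1, makes itaconate in activated myeloid cells and stood at 0.841, 3.72 and 7.31 CPM in D80 transgenic libraries, against 0.0406, 0 and 0.0433 CPM in D80 wild-type libraries. Il11, a cytokine of the interleukin-6 family made by stromal and epithelial cells, stood at 4.84, 13.3 and 25.5 CPM in D80 transgenic libraries, against 0.244, 0.353 and 0.0867 CPM in D80 wild-type libraries. Il6 itself stood at 0.541, 4.61 and 9.27 CPM in D80 transgenic libraries and had no count in the D80 wild-type libraries. Within the set the same measure was highest for Trem1 (0.995) and S100a9 (0.993) and lowest for Fpr1 (0.934) and Il1r2 (0.921), each of which is part of the mean it was set against.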

How the data were processed

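Bulk pylorus RNA was measured in 12 stranded mRNA libraries, 3 for each of 4 groups, as the labels give them. The authors deposited raw counts per gene with no normalization, and a normalized signal table of 15465 genes. The submitters' processing notes list HTSeq 0.9.1, STAR 2.5.3a and edgeR 3.16.5 and name mm10 as the build, with no roles stated. Which annotation and strand setting were used is not given in the sources used here, so overlapping genes may share or lose reads.

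Raw counts were fitted in R 4.3.3 with edgeR 4.0.16 (quasi-likelihood test, TMM factors, filterByExpr) over all 12 libraries, 1 coefficient per group, with Benjamini-Hochberg adjustment over the 15369 of 23420 genes that passed the filter; the threshold was 0.05. The residual spread had 8 degrees of freedom, and the common biological coefficient of variation was 24.2%. The fit was tested on simulated data: for transgenic against wild-type mice at D80, with 15152 genes, it recovered 51% of genes changed by 2-fold and 86.9% of those changed by 4-fold, with 2 false calls; for the other 3 comparisons it recovered 47 to 53% and 83 to 84%, with 4 to 6 false calls. The interaction was not among the simulated comparisons. Rates for genes with the few counts and wide spread of the set were not given separately. The deposited normalized signal was multiplied in each library by the median ratio of raw count to signal. This gave whole reads for 100% of values (tolerance 0.01), equal to the raw counts in 15442 genes. The factor came from the raw counts, so these reads are not an independent source. The same test on these reads is among the alternatives, together with limma 3.58.1, DESeq2 1.42.0, other scalings and filters, and leaving out each library. The pseudocount for limma on the signal table was 1, which makes its fold changes of low genes smaller. Replicate numbers did not pair the libraries: the mean correlation of same-numbered deviations was -0.015 over 18 pairs (-0.396 to 0.431).

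The 10 genes and the other lists were chosen with earlier results of these data known. Of 198 listed genes, 185 matched the table's symbols exactly and 9 through a RefSeq synonym, and 4 did not match (Fpr-rs7, Ly6g, Trac and Hbb-bt) and were not analysed here. Named genes were the 10, their paralogs and ligands, and for each other list up to 4 tested genes with the smallest p-value at D80. Others named (Cybb, Ager, Jak2, Stat3, Gnai2, Elane, Mpo, Ngp, Prtn3, Camp and Ctsg) were chosen after their values were seen. Likeness was ranked over genes with a mean of at least 1 CPM. Coordinates and exon lengths are from GENCODE M21 (GRCm38) and promoters from RefSeq (GRCm38.p6). Exact intervals are Clopper-Pearson and, like the floor of 3 counts, cover counting error only.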

Additional observations from a re-analysis of the deposited data

Results flagged for a closer look

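For Retnlg, the difference between transgenic and wild-type libraries at D80 exceeded that at D60 by 2.92 on the log2 scale, and for Clec4d by 5.02. In both, the test of that difference itself passed the threshold (edgeR quasi-likelihood test, adjusted p = 0.0153 and 0.0474). In D80 transgenic libraries both genes were above every other library, while the D60 transgenic and the wild-type libraries overlapped or lay near each other. The Clec4d call rested on low counts, with 8 over the D80 wild-type and 13 over the D60 wild-type group. Both calls ended in limma-voom (adjusted p = 0.0818 for Retnlg and 0.238 for Clec4d). They also ended in some fits that left out 1 library, for Clec4d in most of them. All D60 wild-type libraries had Y-linked transcripts and no D60 transgenic library did, so sex cannot be told apart from these differences. With 3 libraries per group, no library was tested as standing apart within its group.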

How the results depend on the processing

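The 9 tested genes remained called at D80 and between the ages in transgenic mice under DESeq2, the other scalings and the filters, except that Fpr1 did not pass the CPM filter and so was not tested there. The other exceptions stand beside each gene (Il1r2, and S100a8 and S100a9 in limma-voom), and no direction of a called gene reversed. The count of genes with a called interaction, 2, was 6 with DESeq2, 0 with limma-voom and 5 with limma on the deposited signal, and ran from 0 to 5 when single libraries were left out; the cause was not tested. With the replicate block it was 3, and the block ended the D80 call of Il1r2 (adjusted p = 0.104); it ended no other call of the 9 genes. Over all tested genes, the 768 called interactions were 1735 with DESeq2, 423 with limma-voom and 1421 with limma on the deposited signal, and 193 to 2419 with single libraries left out. The 599 genes called at D60 were 969 with DESeq2 and 378 without replicate 3 of the D60 wild-type group. Leaving out the TMM factors moved the median of all tested genes at D80 by 0.415 and the upper-quartile factors by 0.159, and the number of called signalling partners was 9 without the factors. Depth limits D60 and wild-type levels most: S100a8, S100a9, Cxcr2, Fpr1 and Fpr2 had at most 21 counts per group there.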
